A study of Mus musculus with 8 samples.

Results

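The EGF receptor family and its ligands were followed in mouse skin as 3 receptor genes (Egfr, Erbb2 and Erbb3) and 7 ligand genes (Areg, Ereg, Hbegf, Tgfa, Btc, Epgn and Egf). They were found by gene name, current or former, in the array files, which gave 23 probes for the 10 genes among 41174 probes on the array. Of these probes, 13 read receptors and 10 read ligands. Their RNA was compared between 4 mice treated with enalapril, an inhibitor of angiotensin-converting enzyme, and 4 mice treated with vehicle.

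All 8 mice were males of the hairless SKH-1 strain, 19 weeks old when dorsal skin was taken, and all had received UVB on the back for 10 weeks, so no unirradiated skin enters the comparison. From 1 week after the last exposure, 100 µL of liquid was spread on the back 5 times a week for 2 weeks. In the enalapril group it was enalapril maleate at 1% w/v in 30 vol% ethanol, and in the vehicle group 30 vol% ethanol alone. RNA of each mouse was hybridised to its own 1-colour array, and the labels name the 4 arrays of a group as biological replicates.

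The receptors are tyrosine kinases of the cell surface that work in pairs. EGFR binds the ligands of the family measured here, ERBB2 binds no ligand and pairs with the other receptors, and ERBB3 has a weak kinase and passes signals on through its partner. The ligands are made as membrane-bound precursors and are released by metalloproteases, after which they act on the same or neighbouring cells. In the epidermis this signalling drives keratinocyte division, migration and survival and restrains terminal differentiation, and keratinocytes make several of the ligands themselves.

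Of the ligand genes, Epgn, Ereg, Areg and Btc are neighbours on chromosome 5, in that order among the protein-coding genes and lying between Mthfd2l and Parm1. The promoters of Epgn and Areg, from this cluster, and of Egfr are shown because these are a ligand pair from 1 locus and their receptor, with different letters upstream of their starts. Each run is the 250 bases before the transcription start, on the + strand, from the RefSeq promoter table of GRCm38.p6 (Epgn chr5:91027267-91027516, Areg chr5:91139349-91139598, Egfr chr11:16751953-16752202). Capitals mark every match, on either strand, to TGACG (the core of the cAMP response element), TATAAA (the letters of the TATA box) or GGGCGG (the letters of the GC box).
Epgn: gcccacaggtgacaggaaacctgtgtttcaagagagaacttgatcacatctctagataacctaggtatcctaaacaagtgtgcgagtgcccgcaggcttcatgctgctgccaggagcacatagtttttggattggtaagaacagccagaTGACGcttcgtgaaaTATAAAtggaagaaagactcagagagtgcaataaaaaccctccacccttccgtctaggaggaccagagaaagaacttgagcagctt
Areg: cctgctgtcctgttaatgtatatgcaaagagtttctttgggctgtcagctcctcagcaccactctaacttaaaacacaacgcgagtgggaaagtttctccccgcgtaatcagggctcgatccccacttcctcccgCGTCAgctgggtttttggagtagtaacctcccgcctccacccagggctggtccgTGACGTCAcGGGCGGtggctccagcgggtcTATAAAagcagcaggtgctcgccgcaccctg
Egfr: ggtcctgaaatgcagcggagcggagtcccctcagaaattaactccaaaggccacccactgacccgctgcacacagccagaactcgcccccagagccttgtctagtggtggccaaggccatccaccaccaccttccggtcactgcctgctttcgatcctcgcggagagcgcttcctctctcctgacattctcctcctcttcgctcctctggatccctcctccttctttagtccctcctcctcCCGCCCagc
The Epgn stretch held 1 TGACG and 1 TATAAA. The Areg stretch held 3 TGACG matches, of which 2 overlap in the run TGACGTCA that begins 61 bases before the start, together with 1 TATAAA beginning 31 bases before the start and 1 GGGCGG. The Egfr stretch held a single GGGCGG, read on the reverse strand 9 bases before the start, and no match to the other motifs. Of 32851 promoters of the same length in the table, 17.8% held TGACG, 12.4% held TATAAA and 32.7% held GGGCGG, and a match describes letters, not a bound site. The table held a promoter for 7 of the 10 genes, all but Erbb3, Ereg and Hbegf.

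Between 67.1% and 72.7% of the spots of an array were well above background and 0 were saturated. Slide 1, read in scan 1, carried all vehicle arrays and slide 2, read in scan 2, all enalapril arrays, so in every value below an effect of the slide and one of the drug cannot be told apart. Levels below are the log2 processed intensity of a probe relative to the 75th percentile of its array, and the level of 1 probe is not to be set against that of another. A change is the enalapril mean minus the vehicle mean on this log2 scale, with limma's standard error (SE) over 4 arrays a group, and a gene was called at a Benjamini-Hochberg adjusted p under 0.05. Of 19120 genes tested, 4.34% were called higher and 9.84% lower, and the median change over all of them was -0.08. Of the called genes 30.6% were higher, against 41.8% under quantile normalization and 5.19% in the unscaled deposited values. Without enalapril replicate 4, 26.1% of genes were called, and without any other single array between 4.49% and 10.5%. In whole skin, fewer cells of a type and less RNA per cell cannot be told apart.

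None of the 10 genes was called changed. With the brightest probe standing for each gene, limma called 0 of the 10, where 14.2% of all genes tested were called, and 1 of the 10 (Egf) had an unadjusted p under 0.05. The change was above 0 for 5 genes and below 0 for 5, with a median of 0.02 over the 10, 0.08 over the 3 receptors and -0.05 over the 7 ligands. Vehicle and enalapril arrays failed to overlap for 1 gene, Egf, where 22% of all genes did not overlap. The 95% intervals of the 10 changes ran from -0.925 (lower bound of Epgn) to 0.904 (upper bound of Tgfa), so the intervals take in changes of up to 1.90-fold. In data simulated with this spread, where only a small part of the genes was changed, the test called 24% of genes changed by 0.5 on the log2 scale and 68% of those changed by 1. That part was smaller than the 14.2% called here, which makes the adjusted threshold stricter there. These shares are therefore not the power of the test in the present data.

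**Figure D1:**
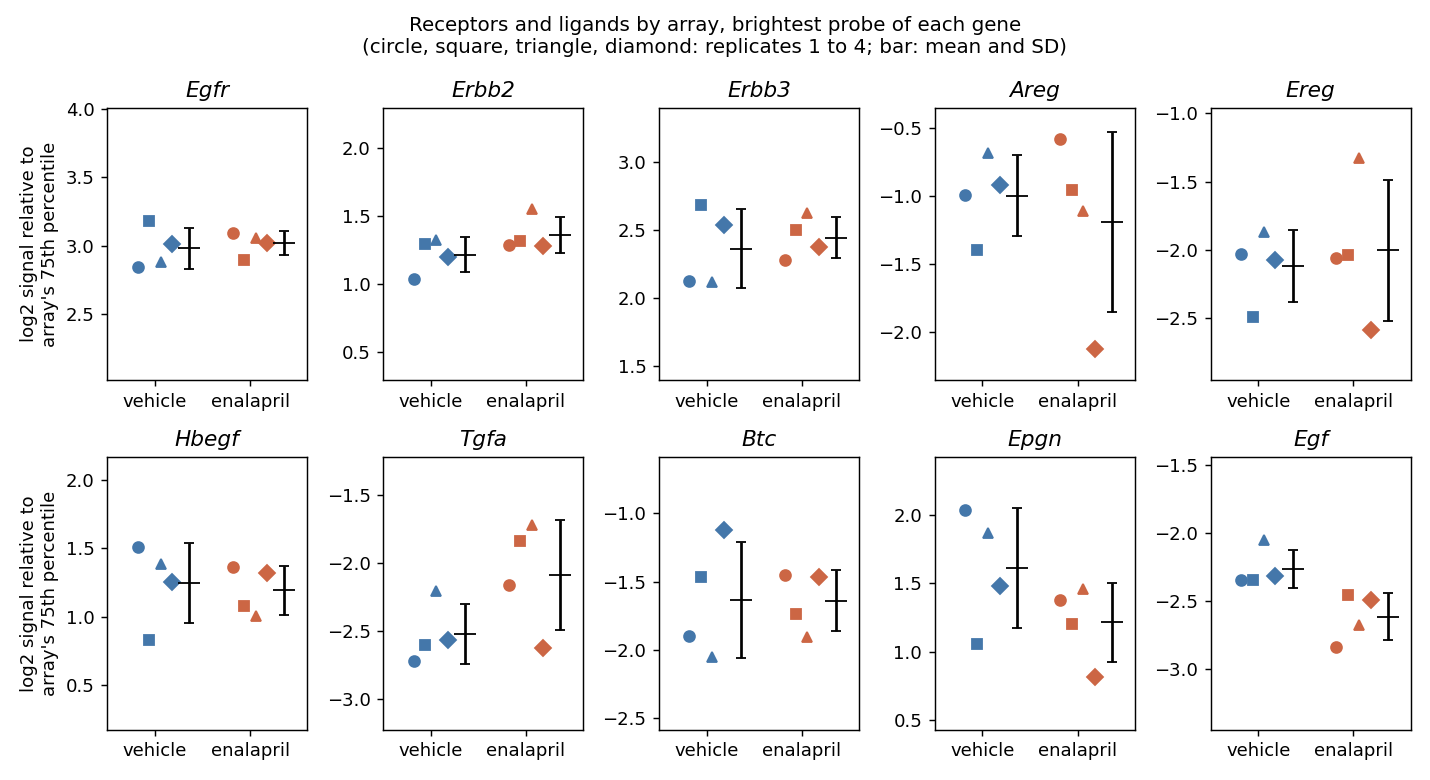
Level of the 10 genes on each array, in log2 units relative to the array's 75th percentile (vertical axis, each panel spanning the same number of log2 units), with 1 point per mouse for vehicle and enalapril and a bar at the group mean. Points of the groups overlap in every panel but that of Egf, where the 4 enalapril mice (-2.83 to -2.45) lie below the 4 vehicle mice (-2.34 to -2.05).

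Egfr, the receptor for EGF, was read brightest by a probe made for transcript variant 1 (NM_207655), which encodes the full-length receptor. Its level was 2.85, 3.18, 2.88 and 3.01 in the vehicle mice and 3.09, 2.89, 3.06 and 3.02 in the enalapril mice. The groups overlapped throughout, with a change of 0.04 (SE 0.11, adjusted p = 0.841) and a 95% interval from -0.20 to 0.28. This probe was printed 10 times on each array, and its spots differed by a coefficient of variation of at most 3.83%, so the spread is that between mice and hybridisations.

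Erbb2, the partner receptor, stood at 1.04, 1.29, 1.32 and 1.20 in the vehicle mice and at 1.29, 1.31, 1.55 and 1.28 in the enalapril mice. The highest array was enalapril 3 and the groups overlapped, with a change of 0.14 (SE 0.11, adjusted p = 0.385). Erbb3, the receptor with the weak kinase, stood at 2.12, 2.68, 2.11 and 2.53 in vehicle and 2.28, 2.50, 2.62 and 2.37 in enalapril. Its vehicle mice spanned more than the enalapril mice and enclosed them, and the change was 0.08 (SE 0.16, adjusted p = 0.760).

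Among the ligands, epigen (Epgn), a low-affinity EGFR ligand, had the largest negative change of the 10 genes without passing the test. It read 2.04, 1.06, 1.87 and 1.48 in the vehicle mice and 1.38, 1.20, 1.46 and 0.81 in the enalapril mice. Vehicle 2 lay among the enalapril values and the other vehicle mice above them, and the change was -0.40 (SE 0.23, adjusted p = 0.268). Its 95% interval, from -0.93 to 0.13, takes in 0.

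Tgfa, which encodes TGF-alpha, an autocrine ligand of keratinocytes, had the largest positive change. It read -2.72, -2.60, -2.21 and -2.56 in vehicle and -2.17, -1.84, -1.73 and -2.62 in enalapril. Enalapril 1, 2 and 3 lay above every vehicle mouse and enalapril 4 lay among the lowest vehicle values, with a change of 0.44 (SE 0.21, adjusted p = 0.183). Without enalapril replicate 4 the change was 0.61 with an adjusted p of 0.0273, and 26.1% of all genes were called. Whether Tgfa was called thus depended on that array, as it did for many other genes. With array weights, which gave that array the lowest weight (0.279), the change was 0.65 with an adjusted p of 0.0133, and 31.1% of all genes were called. With the mean of the Tgfa probes standing for the gene, the change was -0.04 (adjusted p = 0.868).

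Egf, the founding ligand of the family, was the gene whose groups did not overlap. It read -2.34, -2.34, -2.05 and -2.31 in vehicle and -2.83, -2.45, -2.67 and -2.49 in enalapril. Every enalapril mouse lay below every vehicle mouse, by a change of -0.35 (SE 0.12, unadjusted p = 0.0178), which is 1.28-fold lower in enalapril. After adjustment over all genes tested by limma the p was 0.0846, so Egf was not called, and 15.4% of all genes tested had groups that did not overlap with enalapril lower. The probe was dim, at 176 to 371 intensity units in vehicle and 129 to 161 in enalapril, and its 10 spots per array varied by up to 14.2%.

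Amphiregulin (Areg), a heparin-binding ligand of keratinocytes, read -0.99, -1.40, -0.68 and -0.92 in vehicle and -0.58, -0.96, -1.11 and -2.12 in enalapril. Enalapril 4 was far the lowest and enalapril 1 the highest of the 8, and the change of -0.19 had the widest error of the 10 genes (SE 0.31, adjusted p = 0.703). Without enalapril replicate 4 it was 0.12, so its direction rests on that array.
Heparin-binding EGF-like growth factor (Hbegf), which keratinocytes release at wound edges, read 1.51, 0.83, 1.38 and 1.26 in vehicle and 1.37, 1.08, 1.01 and 1.32 in enalapril, a change of -0.05 (SE 0.16, adjusted p = 0.854). The vehicle mice enclosed all 4 enalapril mice.

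Epiregulin (Ereg), a ligand of EGFR and ERBB4, read -2.03, -2.50, -1.87 and -2.07 in vehicle and -2.06, -2.04, -1.33 and -2.58 in enalapril, a change of 0.11 (SE 0.25, adjusted p = 0.790). Here the enalapril mice, led by enalapril 3, enclosed the vehicle mice. Betacellulin (Btc), a ligand of the same receptors, read -1.90, -1.46, -2.05 and -1.12 in vehicle and -1.45, -1.73, -1.91 and -1.47 in enalapril, and its change of -0.01 (SE 0.21, adjusted p = 0.989) was the smallest of the 10. The second Btc probe was not well above background on any array and was not tested.

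Single mice stood out across ligands. Enalapril 4 had the lowest value of its group for 4 of the 7 ligands (Areg, Ereg, Tgfa and Epgn) and the highest for 0, and vehicle 2 had the lowest of its group for 5 of the 7 (Areg, Ereg, Hbegf, Epgn and Egf, the last level with vehicle 1 to 2 decimals). For the receptors vehicle 2 was instead the highest of its group in 2 of 3, Egfr and Erbb3. Vehicle 3 was the highest of its group for 4 ligands. These counts are a description chosen after the values were seen.

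Several genes had more than 1 probe, and the probes of a gene did not all move alike. Of 22 probes tested, each as its own entry in a fit of 28580 probes, 3 were called, 1 higher and 2 lower, where 10.4% of all probes were called (3.82% higher and 6.61% lower). A further 4 had an unadjusted p under 0.05 without being called. The groups did not overlap for 6 of the 22, with enalapril above in 2 and below in 4, where 20.2% of all probes tested did not overlap (7.12% above and 13.1% below). The 3 called probes were none of those that stood for their gene above. Of them 1, an Erbb3 probe, was tested only because it was above background in the vehicle group, and the call is not read as a change. Without it 2 of 21 were called, 1 in each direction, and 5 did not overlap, 3 of them below. Of the 22, 4 were called higher and 3 lower without enalapril replicate 4, where 24.7% of all probes were called. Without any other array at most 1 was called in each direction, and 0 in both without vehicle replicate 1, vehicle replicate 4 or enalapril replicate 2.

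**Figure D2:**
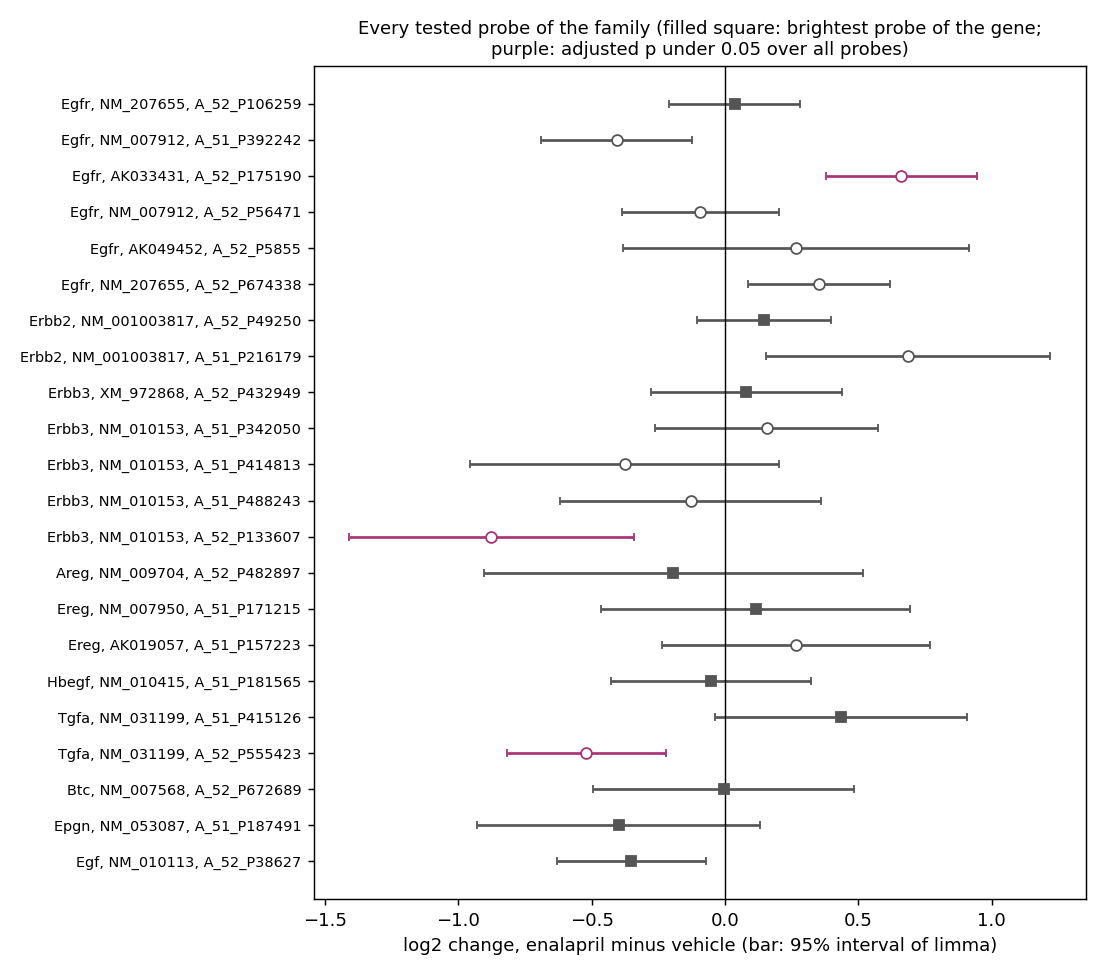
Log2 change, enalapril minus vehicle, of the 22 tested probes of the 10 genes in the fit of every probe (horizontal axis), with limma's 95% interval as a line and probes grouped by gene. The called probes are 1 Egfr clone probe at 0.66, the second Tgfa probe at -0.52 and an Erbb3 probe at -0.88 that was well above background on 1 of 4 enalapril arrays, and most other intervals cross 0.

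Egfr had 6 probes. The probe called higher was made for AK033431, a cDNA clone from colon that the array design assigned to Egfr. It read -1.65, -1.38, -1.72 and -1.83 in vehicle and -0.82, -1.09, -1.06 and -0.97 in enalapril, so every enalapril mouse was above every vehicle mouse, and the probe rose by 0.66 (SE 0.12, adjusted p = 0.0208), or 1.58-fold. The call held in 3 of 8 fits that left out 1 array (adjusted p between 0.0139 and 0.061). It was lost without vehicle replicate 1 or 4 and without enalapril replicate 1, 2 or 3, and in 3 of 11 other settings, E1A control centring (on added control RNA) and the unscaled deposited values among them.

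A probe for Egfr transcript variant 2 (NM_007912), the shorter transcript, which encodes a truncated receptor without the kinase, lay the other way. It read 0.82, 0.77, 0.84 and 0.75 in vehicle and 0.12, 0.30, 0.60 and 0.53 in enalapril. The vehicle mice lay within 0.09 of each other and above every enalapril mouse, yet the change of -0.41 (SE 0.12, adjusted p = 0.0711) was not called. It was called, at -0.46 (adjusted p = 0.0357), when enalapril replicate 4 was left out. Another probe named for the same transcript had a change of -0.09 (SE 0.13, adjusted p = 0.673), with overlapping groups. The other variant 1 probe, A_52_P674338, had all enalapril mice (-1.79 to -1.42) above all vehicle mice (-2.12 to -1.84), with a change of 0.35 (SE 0.12, adjusted p = 0.0872), or 0.41 without enalapril replicate 4, where it was called (adjusted p = 0.0344). The remaining clone probe, for AK049452, overlapped, with a change of 0.27 (SE 0.29, adjusted p = 0.573). Its lowest array was enalapril 4, and with that array left out the change was 0.58 and was called (adjusted p = 0.0175). The files give no position for any probe, so which Egfr transcripts each one reads is known only from the name of its target.

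Tgfa had 2 probes, both named for NM_031199. The second was called lower, while the first, given above, had a change of 0.44. The second read -4.31, -4.36, -4.18 and -4.59 in vehicle and -4.97, -4.63, -5.04 and -4.87 in enalapril, so every enalapril mouse lay below every vehicle mouse, and it fell by 0.52 (SE 0.13, adjusted p = 0.0421). It was called in 1 of 8 fits that left out 1 array, the one without enalapril replicate 4. Under normexp background correction, which added 50 intensity units to every spot, its change was 0.02. The probe itself read 24.9 to 85.1 units, and a constant of that size shrinks its log2 change. The fall of this dim probe was thus not seen under normexp, and the part of the added constant in this was not tested.

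Erbb3 had 5 probes, of which the brightest was made for a predicted transcript (XM_972868) and the other 4 for NM_010153 at levels near background. Of these 4, A_52_P133607 was well above background on 4 vehicle arrays but on 1 enalapril array, so it entered the test through the vehicle group and its level in enalapril was not measured on 3 arrays. It read -5.42, -5.25, -5.55 and -5.69 in vehicle and -6.28, -6.99, -5.78 and -6.37 in enalapril. The fitted difference of -0.88 (SE 0.23, adjusted p = 0.0490) is therefore not the size of a change. Its call held in 2 of 8 fits that left out 1 array (those without enalapril replicate 3 or 4). Under normexp the difference was 0.08, and the 50 units added there exceed the probe's own 6.95 to 40.5 units. Their part in this value was not tested. The other 3 NM_010153 probes had changes of 0.16, -0.13 and -0.38 (adjusted p = 0.608, 0.731 and 0.359), all with overlapping groups. 

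The second Erbb2 probe read -3.34, -3.44, -3.05 and -3.50 in vehicle and -3.30, -2.55, -2.11 and -2.61 in enalapril. Enalapril 1 lay among the vehicle mice and the other 3 above them, with a change of 0.69 (SE 0.23, adjusted p = 0.0935). Without enalapril replicate 1 it was called, at 0.91 (adjusted p = 0.0435). The second Ereg probe had a change of 0.27 (SE 0.22, adjusted p = 0.456).

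The disagreement between probes of a gene was also measured within each array, as the level of a further probe minus that of the brightest one, a quantity in which a factor common to the whole array cancels. For 4 of 12 such pairs the groups did not overlap, which gave each an exact 2-sided permutation p of 0.0286, the smallest that 4 against 4 can give. With these exact permutation p-values adjusted over the 12 pairs, each of the 4 had p = 0.0858, so 0 of 12 passed the threshold. A pair could pass only if most of the 12 had the smallest p, so this count decides little. Pairs of a gene share its brightest probe. The share of pairs not overlapping over all genes of the array was not computed, so 4 of 12 has nothing to be set against. The pairs were tested after the values were seen. Of the 4, that of Erbb3 involves the probe not measured on 3 enalapril arrays and is not described.

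For Egfr, the variant 2 probe minus the variant 1 probe was -2.19 ± 0.19 in vehicle and -2.63 ± 0.24 in enalapril (mean ± SD, n = 4 each), a shift of -0.44, or 1.36-fold. The clone probe minus the variant 1 probe was -4.63 ± 0.16 in vehicle and -4.00 ± 0.09 in enalapril, a shift of 0.63, or 1.54-fold the other way. For Tgfa the second minus the first probe was -1.84 ± 0.21 in vehicle and -2.79 ± 0.44 in enalapril, a shift of -0.96, or 1.94-fold. Under normexp, with its 50 added units, the shift was -0.39.

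**Figure D3:**
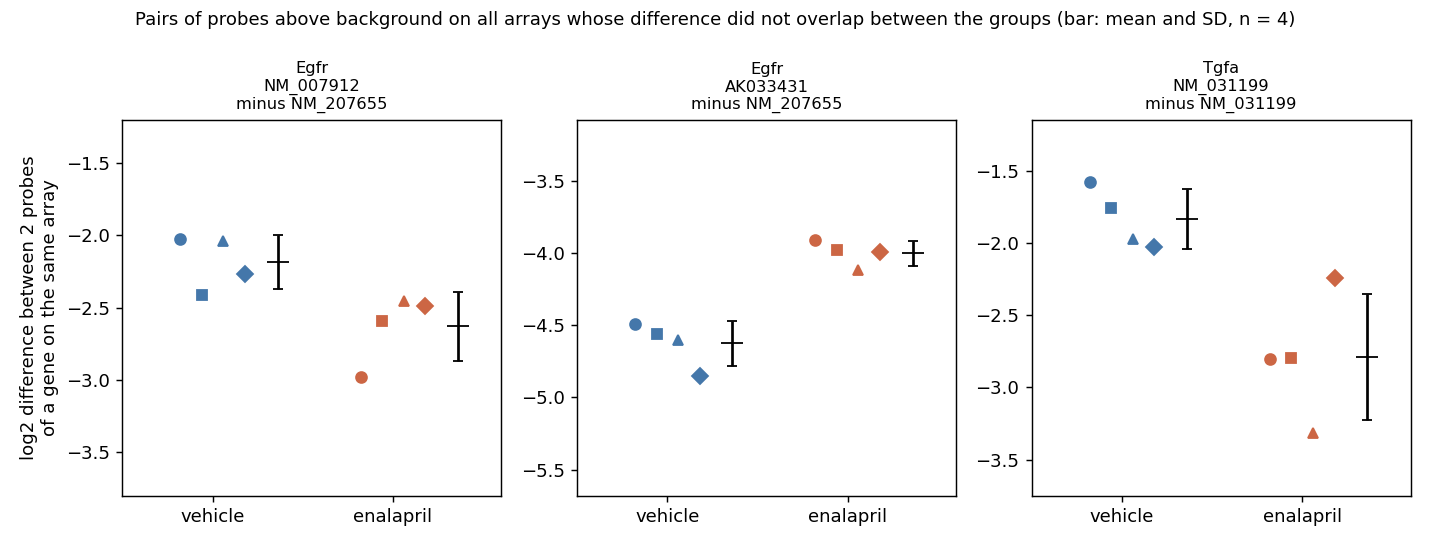
Within-array difference between 2 probes of the same gene (vertical axis, log2 units, further probe minus brightest probe), with 1 point per mouse and a bar for mean and SD, for the 3 pairs of probes above background on all 8 arrays whose groups did not overlap. In Egfr the variant 2 difference is lower in enalapril (-2.63 against -2.19) and the clone difference higher (-4.00 against -4.63), and in Tgfa the difference is lower in enalapril (-2.79 against -1.84).

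Because no gene of the family was called, likeness in pattern was taken from Egfr. Over the 8 arrays, the genes whose levels followed its brightest probe most closely were Notch3, a Notch receptor (Pearson r = 0.959), Rnf165, a RING finger protein (0.930), and Cdh4, a cadherin (0.914). After the group means were removed the r were 0.958, 0.928 and 0.914, and none of the 3 was called (adjusted p = 0.837, 0.806 and 0.637). The points share arrays and their scaling, and the genes were the closest of all those tested.

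The remaining receptor of the family, Erbb4, and the tested genes of the neuregulins (Nrg1 and Nrg4), which bind ERBB3 or ERBB4, were also not called. Erbb4 read 0.33, -0.15, 0.12 and 0.38 in vehicle and -0.36, -0.16, -0.05 and 0.28 in enalapril on 1 probe, with a change of -0.25 (SE 0.17, adjusted p = 0.345), while its 2 other probes were not well above background on any array. Nrg1 had a change of 0.37 (SE 0.24, adjusted p = 0.329) and Nrg4 of -0.32 (SE 0.20, adjusted p = 0.320), and for both the groups overlapped. Nrg3 was not well above background on any array, and Nrg2 was not analysed here.

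Beyond receptors and ligands, 5 lists of 87 genes covered ErbB4 with the neuregulins, the proteases that release the ligands, inhibitors of the receptor, its intracellular cascade and the genes it induces. Of the 82 tested, 1 was called higher and 1 lower (2.44%, where 14.2% of all genes tested were called), and 12 had an unadjusted p under 0.05. The median change over the 82 was -0.01, beside -0.08 over all genes tested, and the groups did not overlap for 8 of them, where 22% of all genes did not overlap. Without enalapril replicate 4, 6 were called higher and 3 lower, where 26.1% of all genes were called in either direction. Without vehicle replicate 3, 2 were called higher and 1 lower, where 10.5% of all genes were called. The count called higher was 0 without vehicle replicate 1 or 4 and without enalapril replicate 1, 2 or 3. In those fits 4.49% to 5.69% of all genes were called.

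Both genes called on their brightest probe belong to the cascade below the receptor, of which 26 of 27 were tested. Hras, a RAS GTPase, read 4.03, 3.94, 4.22 and 4.02 in vehicle and 3.50, 3.38, 3.62 and 3.50 in enalapril. All enalapril mice were below all vehicle mice, and it fell by 0.55 (SE 0.10, adjusted p = 0.0146), with the call kept in 8 of 8 fits that left out 1 array and lost under quantile normalization and E1A control centring. Braf, the kinase that RAS activates, read -1.27, -1.12, -1.20 and -1.44 in vehicle and -0.85, -0.80, -0.78 and -0.86 in enalapril. It rose by 0.43 (SE 0.10, adjusted p = 0.0255), and the call was kept in 3 of 8 such fits (adjusted p between 0.0183 and 0.0707) and in 7 of 12 other settings. Of the other 4 Braf probes tested (a sixth was not tested), A_52_P39724 was called higher too, at 1.15 (adjusted p = 0.0266), and the others, at 0.41, 0.15 and 0.04, were not. A further Eps15 probe was also called higher in the fit of every probe, at 1.20 (adjusted p = 0.00739), where 10.4% of all probes were called. The brightest Eps15 probe was at 0.14 and was not called. The median of this list was 0.01.

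No gene of the remaining lists was called on its brightest probe, and the following are values only. Among 11 proteases and regulators that release ligands (median -0.05), the smallest p belonged to Adam12 at 0.76 (SE 0.22, adjusted p = 0.0535) and Adam17, the main sheddase of TGF-alpha and amphiregulin, at 0.53 (SE 0.22, adjusted p = 0.138). Both of the Adam17 probes read 0.53. Among 18 tested inhibitors of the receptor (median 0.00), they belonged to Spred2, which blocks RAF activation, at 0.35 (SE 0.10, adjusted p = 0.0577), and Cblb, a ubiquitin ligase, at 0.89 (SE 0.30, adjusted p = 0.0794). Among 24 genes induced by the receptor (median -0.02), they belonged to Ier3 at -0.29 (SE 0.13, adjusted p = 0.152) and Egr1, an immediate early transcription factor, at 0.41 (SE 0.19, adjusted p = 0.165). In the fit of every probe, a further probe of Bcl2l1, from the same list, was called higher at 0.65 (adjusted p = 0.0434). The brightest Bcl2l1 probe was at 0.19 and another at -0.22, neither called.

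**Figure D4:**
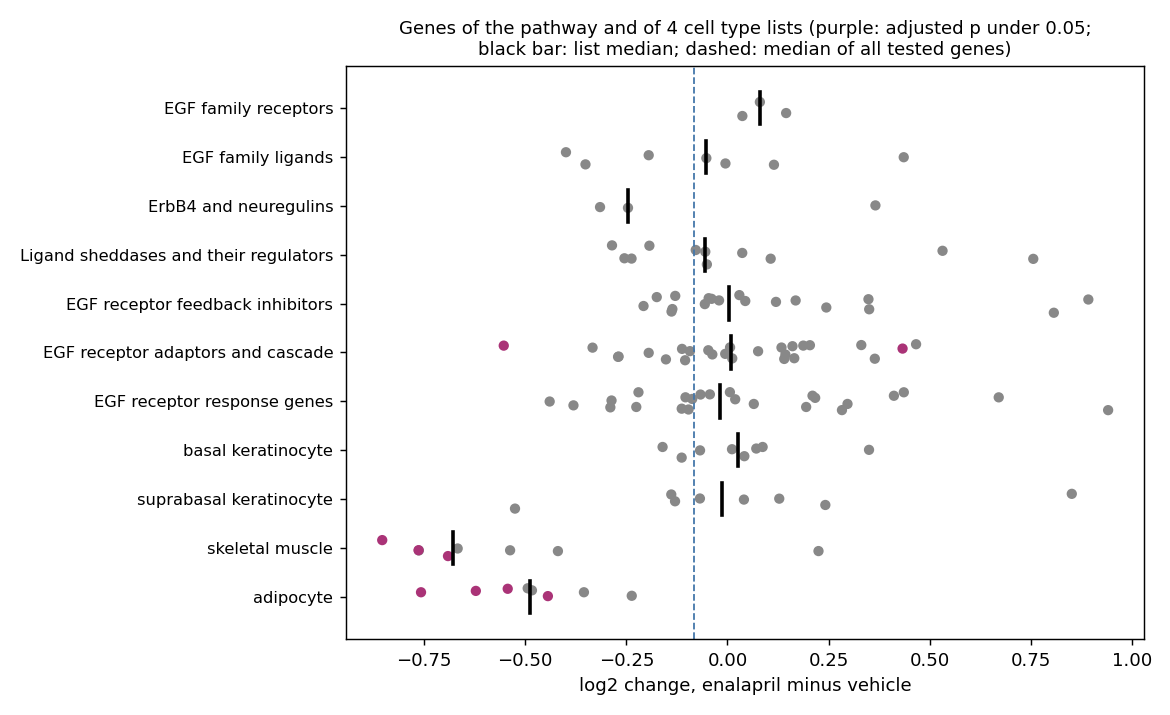
Log2 change, enalapril minus vehicle, of every tested gene of the receptor, ligand and pathway lists (horizontal axis, 1 point per gene, 1 line per list, with the list median as a bar). Lists of basal keratinocyte, suprabasal keratinocyte, skeletal muscle and adipocyte genes are drawn below them. Among the receptor, ligand and pathway lists, points lie on both sides of 0 in each but that of the 3 receptors. The 2 called genes of these lists, Hras at -0.55 and Braf at 0.43, are both in that of adaptors and cascade. All 8 adipocyte genes lie below 0, with 4 called lower, and 3 skeletal muscle genes were called lower.

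The labelled tissue was checked against its markers. Of 8 basal keratinocyte genes 0 were called on their brightest probe, and their mean level was 4.73 to 5.02 in vehicle and 4.75 to 4.99 in enalapril. The change was 0.07 for Krt5 and 0.09 for Krt14. For Trp63 it was 0.35 (adjusted p = 0.0505), with groups that did not overlap. In the fit of every probe, further probes of Trp63 (0.77, adjusted p = 0.0437), Dst (0.60, adjusted p = 0.0195) and Itgb4 (-0.62, adjusted p = 0.0374) were called. The brightest probes of Dst and Itgb4 were at -0.11 and 0.04. Of all probes 10.4% were called. Of 8 suprabasal genes 0 were called as well (5.11 to 5.65 against 5.20 to 5.57). Of 8 skeletal muscle genes 3 were called lower, among them Mylpf (-0.85) and Tnnt3 (-0.76), with mean levels of 5.36 to 6.23 against 5.18 to 5.31. The change was below 0 for 7 of the 8 and above 0 for Myh4 (0.225, adjusted p = 0.709). Of 8 adipocyte genes 4 were called lower, among them Cidec (-0.76) and Pck1 (-0.62), with mean levels of 3.50 to 3.73 against 2.91 to 3.41. The part of muscle and fat in the values of the EGF receptor family, and of Hras and Braf, was not tested.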

How the data were processed

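RNA from dorsal skin was hybridised to 8 1-colour Agilent arrays, 4 per group. The authors' scanner software was Agilent Feature Extraction, version 9.1.3.1 per the file headers and 9.1 per the submitters' processing notes. It gave a background-subtracted processed intensity, with no scaling between arrays, and the deposited 0 or 1 flags (other values) used here to filter spots. The log2 values of the deposited series matrix equal log2 of that intensity, with neither scaling nor centring between arrays.

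Outlier spots were removed, spots of a probe averaged and each array's 75th percentile subtracted on the log2 scale. Probes were named by accession, symbol or synonym through RefSeq genes of GRCm38.p6, which also gave gene order and promoters. Probes well above background on at least 4 of 8 arrays were tested with limma 3.58.1 in R 4.3.3 (files read with data.table, version 1.17.8), with group as the only term and 2-sided tests. The brightest probe stood for each gene, and every probe was fitted separately. Data were also simulated with 19120 genes, of which only a small part was changed. The test called 24%, 68%, 88% and 96% of genes changed by 0.5, 1, 1.5 and 2 on the log2 scale. With so few genes changed, the adjusted threshold was stricter than in the data, so these shares hold for the simulated setting only. The number of arrays limits the precision.

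The genes and lists were chosen with earlier results of these data known. All 10 genes are named. In other lists, called genes are named, or otherwise the 2 with the smallest p. Up to 2 defining markers per cell type and 3 genes most like Egfr are named too. The second Braf and Adam17 probes, A_52_P674338, enalapril 4 and the further markers Trp63 and Myh4 were singled out after their values were seen. So were the further probes of Eps15, Bcl2l1, Trp63, Dst, Itgb4, Cd4, Col1a1 and Sox9. The alternatives were other background correction, scaling, filters, probe summaries and error models, the replicate number as a block, and each array left out. Applying them to single probes was decided after seeing the data. On the brightest probes, lists of other cell types gave 0 called genes, except macrophages, with Itgam higher. In the fit of every probe, further probes of Cd4, Col1a1 and Sox9 were called higher. A treatment of 6 weeks and groups of 6 mice, which the series text names, were not analysed here.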

Additional observations from a re-analysis of the deposited data

Results flagged for a closer look

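Egf in the vehicle group had 1 array apart from the rest. Vehicle 3 read -2.05 and the other 3 read -2.34 to -2.31, a gap of 0.893 of the group's range, above Dixon's 95% critical value for 4 samples. The enalapril arrays lay below all 4, so vehicle 3 was the array farthest from them.

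Erbb2 in the enalapril group was the other case. Enalapril 3 read 1.55 and the other 3 read 1.28 to 1.31, a gap of 0.877 of the range. With 20 groups examined (10 genes in 2 groups), chance alone marks about 1 in 20.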

How the results depend on the processing

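The alternatives called 0 of the 10 genes lower, and array weights called 1 higher (Tgfa), as did leaving out enalapril replicate 4 (range 0 to 1). Array weights called 31.1% of all genes and 27.9% of all probes, against 14.2% and 10.4% without them, and their counts below stand beside those shares. Of all probes, 0.959% were called with E1A control centring, 5.42% in the series matrix and 0.133% with the replicate block. The share was 6.56% with normexp, 7.36% with quantile normalization, 3.38% with no filter and 1.4% to 24.7% with 1 array left out. Of all genes, 1.97% were called with E1A control centring, 10.4% in the series matrix and 4.49% to 26.1% with 1 array left out. Probes called higher numbered 0 with E1A control centring, the series matrix or the replicate block, 4 with array weights and 0 to 4 with 1 array left out. Probes called lower numbered 0 with normexp, quantile normalization, E1A centring, no filter on dim probes or the replicate block, 1 with median centring, the series matrix, the filter on all 8 arrays or an intensity trend, and 0 to 3 with 1 array left out. Pathway genes called higher numbered 0 with median centring, E1A centring, the series matrix, no filter or the replicate block, 2 with the filter on all 4 arrays of a group or probes averaged per gene, 9 with array weights and 0 to 6 with 1 array left out. Those called lower numbered 0 with quantile normalization or E1A centring, 3 with an intensity trend, 7 with array weights and 1 to 3 with 1 array left out.

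The series matrix, which is unscaled, shifted the median of all genes to -0.448 and that of the 10 genes to -0.35, with Egfr at -0.33, Erbb2 at -0.22, Erbb3 at -0.29 and Ereg at -0.25. E1A centring shifted all genes to -0.145, with Egfr at -0.026. These settings differ from the percentile scaling only by a constant per array. Set against those medians, each gene therefore has the same value by arithmetic, for example 0.12 for Egfr, which tests nothing. Directions also turned for Egfr (-0.026) and Areg (0.081) with array weights, Erbb3 (-0.23) and Tgfa (-0.042) with the mean of probes, Hbegf (0.012) with quantile normalization, and Btc (0.079), the called Erbb3 probe (0.076), its difference from the brightest probe (0.020) and the second Tgfa probe (0.019) with normexp. With 1 array left out, changes ranged from -0.0078 to 0.103 for Egfr, -0.0024 to 0.19 for Erbb3, -0.40 to 0.12 for Areg, -0.11 to 0.31 for Ereg, -0.19 to 0.036 for Hbegf and -0.14 to 0.17 for Btc. None of these turned values was called, and the cause was not tested. Normexp adds 50 intensity units, which shrinks the log2 changes of dim probes. The direction of the called Erbb3 probe and of the second Tgfa probe thus depended on the background correction. The part of the added units in this was not tested.

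The called Egfr clone probe kept its call in 8 of 11 alternatives, the second Tgfa probe in 4 of 11 and the Erbb3 probe in 3 of 10. The replicate numbers did not pair the mice (correlations of same-numbered arrays between -0.159 and 0.144), and with the replicate block 3.2% of all genes were called. Slide and scan could not be fitted as blocks, because each held 1 group.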
